A study of Rattus norvegicus with 22 samples.

Results

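Visceral fat of the mesentery from rats after duodenal-jejunal bypass (DJB) was set against the same fat from rats with type 2 diabetes (T2DM), across all genes of the deposited count table. Duodenal-jejunal bypass is an operation that joins the gut so that food passes by the duodenum. The comparison used the 6 visceral DJB and the 6 visceral T2DM libraries of the 22 RNA-seq libraries in the series, chosen by their labels. The subcutaneous libraries of the groin, 5 from DJB and 5 from T2DM rats, entered the same fit and helped to estimate the spread. Of 24286 genes in the table, 14019 were tested.

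All rats were labelled wild type (WT). The treatment label of the DJB group names HFD, the usual abbreviation of high-fat diet, together with DJB, and that of the T2DM group names HFD. A treatment text shared by all samples names the bypass and 30 mg/kg of streptozotocin, which destroys the beta cells of the pancreas. The titles give 4 months without saying whether this is an age or a time after surgery. The labels name no sham-operated or healthy rats and give no strain, sex or feeding regime, so effects of the operation itself and of food intake cannot be told apart from those of the bypass. Nothing in them tells whether each library is a rat of its own, and the p-values measure only the spread between these samples, which may be technical. The cell type label reads visceral adipocyte for all visceral libraries except T2DM library 1, where it reads visceral. The libraries held the RNA of a whole tissue by their markers: 17 adipocyte markers summed to 8970 to 19900 CPM (counts scaled to a common library total) in DJB and 13200 to 61000 CPM in T2DM libraries, and 20 macrophage markers to 4360 to 6870 CPM in DJB and 3000 to 7080 CPM in T2DM libraries. The gene Lpl is in both lists and is counted in both sums.

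Mesenteric fat surrounds the gut and drains into the portal vein. Its adipocytes store triglyceride, release fatty acids, burn part of them in mitochondria and secrete hormones called adipokines, and they lie among capillaries, lymphatic vessels, fibroblasts and immune cells. Interferon gamma, a cytokine of T and natural killer cells, acts through transcription factors, IRF1 among them, and induces a characteristic set of GTPases, antigen-processing genes and chemokines in the cells that receive it. In bulk tissue, fewer cells of a type and less RNA per cell cannot be told apart.

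Levels are CPM after TMM normalization (a trimmed mean of log ratios between libraries), which makes the bulk of genes comparable between libraries. Fold changes are DJB over T2DM on the log2 scale from edgeR's quasi-likelihood test, with their standard error (SE), and a gene was called at a Benjamini-Hochberg adjusted p under 0.05. A gene separated every library when all 6 DJB libraries lay on one side of all 6 T2DM libraries. A called gene rested on a few libraries when at most 2 libraries of the higher group lay above every library of the other, and it was partial in between.

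The libraries differed in ways that the groups do not explain. Total counts lay between 58951508 and 88829000. In T2DM library 2 the level of a gene relative to the mean of all libraries fell with transcript length (Spearman rho -0.518 across genes), as it did in T2DM library 5 (-0.383), whereas rho lay between -0.105 and 0.277 in the other visceral libraries. The scale of T2DM library 2 was 0.666 by TMM and 1.94 by TPM, a length-corrected share of transcripts, so its levels hang on the scaling. Genes of bladder and stratified epithelium were high in T2DM libraries 2, 3 and 4, genes of liver plasma proteins in DJB libraries 1 and 2, and chaperones of the endoplasmic reticulum in DJB libraries 5 and 6. Mitochondrially encoded genes took 29.5% ± 11.7 of the counts in DJB and 27.4% ± 11.2 in T2DM libraries (SD, n = 6 each; two-sided exact permutation test, p = 0.749). Groups of genes that follow these libraries are given apart from those that separated every library.

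In mesenteric fat after bypass, 5 of 27 tested genes induced by interferon gamma fell, and 2 of 20 markers of blood endothelium and 1 of 13 of lymphatic endothelium rose. Each of these called genes set every library of one group apart from every library of the other. For most called genes the libraries of the 2 groups overlapped. Of the 14019 genes, 658 were called (4.69%), 59 higher in DJB (0.421%) and 599 lower (4.27%), and 3106 had an unadjusted p under 0.05. Among the 658 called genes, 66 separated every library (10.0%), 575 were partial (87.4%) and 17 rested on a few libraries (2.58%). The share that separated every library was 19 of 59 among the higher genes and 47 of 599 among the lower genes. Over all tested genes 141 separated every library (1.01%), 73 higher in DJB (0.521%) and 68 lower (0.485%), so that 75 genes separated every library and were not called.

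**Figure D1:**
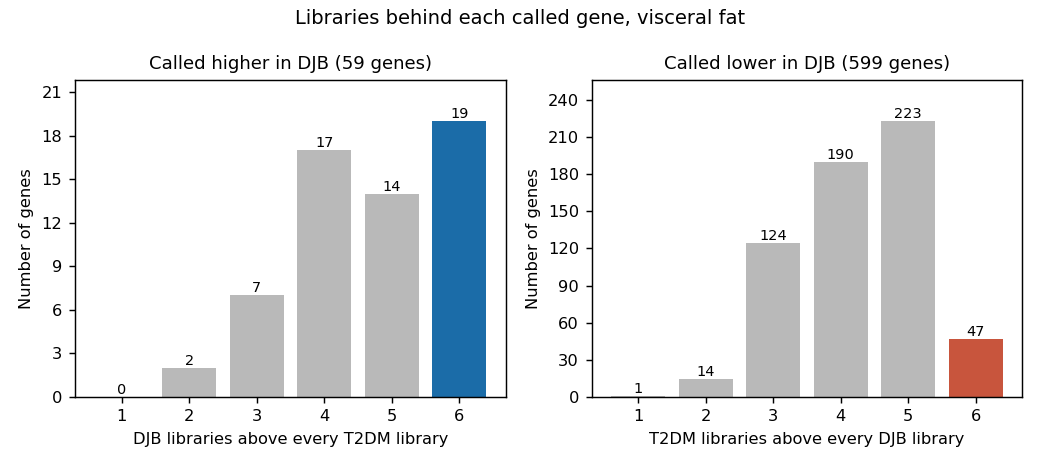
Number of called genes (vertical axis) by how many libraries of the higher group lay above every library of the other group (horizontal axis), for genes higher in DJB (left) and lower in DJB (right). Coloured bars are the genes that separated every library, 19 of 59 higher and 47 of 599 lower, while 223 of the lower genes had 5 T2DM libraries above every DJB library.

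T2DM library 1 was the one least often above every DJB library among the lower genes. Of the 599 lower genes it was above every DJB library for 167, against 577 for T2DM library 2, 456 for library 3, 412 for library 4, 512 for library 5 and 434 for library 6. The most frequent pattern, with 161 genes, was T2DM libraries 2 to 6 above every DJB library and T2DM library 1 not above all of these. Of the 59 higher genes, DJB library 4 was above every T2DM library for 28, and the other DJB libraries for 44 to 53. Separating genes were not those with the greatest fold changes: their median absolute log2 fold change was 1.75, against 2.16 in the called genes whose groups overlapped. In the separating genes the fold between group medians was nearer to the fold of the fit, with a median ratio of the log2 values of 0.865, against 0.613 in the overlapping genes.

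The calls depended on single libraries. With 1 DJB library left out, 2, 1, 7, 373, 1 and 1 genes were called without libraries 1 to 6, and with 1 T2DM library left out, 1744, 67, 674, 880, 159 and 960. Only Fndc5 was called in all 12 of these fits. A fit of the 12 visceral libraries alone called 1 gene, Ido1. With edgeR no gene was called without DJB libraries 1 and 2, without DJB libraries 5 and 6, or without T2DM libraries 2, 3 and 4 (2497, 2391 and 1436 genes had an unadjusted p under 0.05). Without T2DM libraries 2 and 5 there were 73 called genes. Every call named below except that of Fndc5 therefore ends when DJB library 2, 5 or 6 is left out; directions and overlap of the groups are given for each result.

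**Figure D2:**
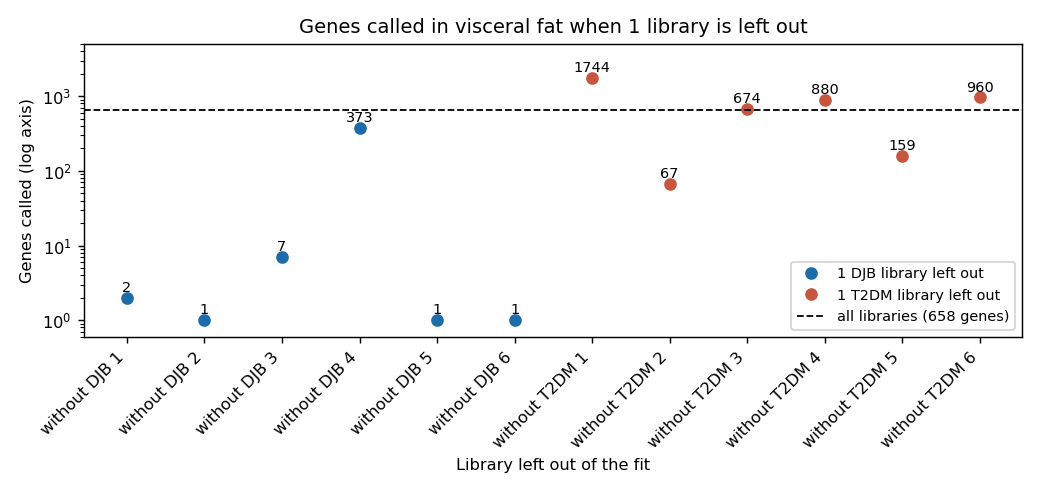
Number of genes called in visceral fat (log axis) when the library named on the horizontal axis was left out of the fit, with DJB libraries on the left and T2DM libraries on the right. The dashed line is the count with all libraries, 658; the count fell to 7 or fewer without any DJB library but library 4, and reached 1744 without T2DM library 1.

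Genes induced by interferon gamma had lower list means in every DJB library than in any T2DM library. Of 27 tested genes of this list, 24 had a negative fold change, with a median log2 fold change of -1.10 against -0.03 over all tested genes. The 5 called genes all fell, and all 5 separated every library, as did 2 further members that were not called, Ifi47 and Tap1. The mean of log2(CPM + 1) over the list was 4.54 to 4.94 in DJB libraries and 5.36 to 6.45 in T2DM libraries, so the 2 groups did not overlap at the level of the list either.

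The transcription factor Irf1, which relays the interferon signal, had 54.1, 81.0 and 102 CPM (lowest, median and highest) in DJB libraries and 139, 170 and 271 CPM in T2DM libraries. The groups did not overlap, and T2DM library 5 was the highest. The log2 fold change was -1.23 (SE 0.25, adjusted p = 0.0291 by edgeR), and it stayed between -1.35 and -1.08 with any 1 library left out.

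The 3 called immunity-related or guanylate-binding GTPases of the list, which attack the vacuoles of intracellular microbes, also fell. Irgm had 29.6, 31.5 and 36.3 CPM in DJB libraries and 52.9, 63.5 and 118 CPM in T2DM libraries (log2 fold change -1.15, SE 0.22, adjusted p = 0.0284). The DJB libraries lay within a narrow band and every T2DM library was above it. Igtp had 35.7, 43.5 and 54.8 CPM in DJB libraries and 65.5, 119 and 364 CPM in T2DM libraries (log2 fold change -1.80, SE 0.38, adjusted p = 0.0300). Gbp2 had 88.5, 118 and 125 CPM in DJB libraries and 218, 254 and 425 CPM in T2DM libraries (log2 fold change -1.32, SE 0.31, adjusted p = 0.0329). In each of the 3 the lowest T2DM library was above the highest DJB library, and T2DM library 5 was the highest of all.

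Ido1, the enzyme that opens the ring of tryptophan, showed the steepest difference of the list. It had 0.398, 0.869 and 1.35 CPM in DJB libraries and 4.80, 21.96 and 75.9 CPM in T2DM libraries (log2 fold change -5.02, SE 0.93, adjusted p = 0.0282). The lowest T2DM library, library 1, was above every DJB library.

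The promoters of 4 of these genes are shown because the factors of the interferon pathway are known to bind short DNA words there. They are the 250 bases before the start of the RefSeq transcript on the rat build GRCr8, with matches in capitals: TTCNNNGAA, the gamma-activated site (GAS), and an interferon-stimulated response element (ISRE), searched as GAAA, any 2 bases and GAAA, on either strand. The windows are chr10:38417685-38417934 for Irf1, chr10:33742579-33742828 on the minus strand for Irgm, chr10:42874797-42875046 for Igtp and chr2:234005477-234005726 for Gbp2.
Irf1: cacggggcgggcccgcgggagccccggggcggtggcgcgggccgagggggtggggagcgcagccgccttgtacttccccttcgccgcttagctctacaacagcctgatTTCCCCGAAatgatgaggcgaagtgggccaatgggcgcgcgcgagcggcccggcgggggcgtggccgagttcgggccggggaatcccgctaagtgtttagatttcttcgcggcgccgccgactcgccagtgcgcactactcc
Irgm: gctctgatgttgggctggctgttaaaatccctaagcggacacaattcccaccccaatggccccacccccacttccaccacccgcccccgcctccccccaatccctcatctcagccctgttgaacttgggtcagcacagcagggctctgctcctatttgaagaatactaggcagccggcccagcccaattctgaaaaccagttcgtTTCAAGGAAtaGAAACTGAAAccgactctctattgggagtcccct
Igtp: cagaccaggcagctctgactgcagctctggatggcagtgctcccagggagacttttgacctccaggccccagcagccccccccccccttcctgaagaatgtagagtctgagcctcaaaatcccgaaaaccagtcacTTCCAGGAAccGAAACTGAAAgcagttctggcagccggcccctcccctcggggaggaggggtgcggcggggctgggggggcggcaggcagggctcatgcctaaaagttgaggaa
Gbp2: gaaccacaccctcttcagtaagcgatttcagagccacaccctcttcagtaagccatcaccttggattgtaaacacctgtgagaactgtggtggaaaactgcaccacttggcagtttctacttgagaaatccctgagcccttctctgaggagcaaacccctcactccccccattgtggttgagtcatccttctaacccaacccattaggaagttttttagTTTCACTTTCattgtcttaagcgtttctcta
Irf1 has a GAS from base -142 to -134 before the start. Irgm and Igtp each have a GAS followed after 2 bases by an ISRE, from -45 to -25 in Irgm and from -114 to -94 in Igtp, and Gbp2 has an ISRE on the minus strand from -31 to -22. Of the 7 separating genes 6 have a RefSeq window, and all 6 hold at least 1 of the 2 words, 4 a GAS and 4 an ISRE. Among all 33469 windows of this length 7.67% hold a GAS and 3.41% an ISRE. Over the 27 tested genes of the list 16 of 22 windows hold 1 or both, and over the type I interferon list described below 13 of 17 do, so the words are not particular to the genes that separated the groups. A match describes the letters only.

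**Figure D3:**
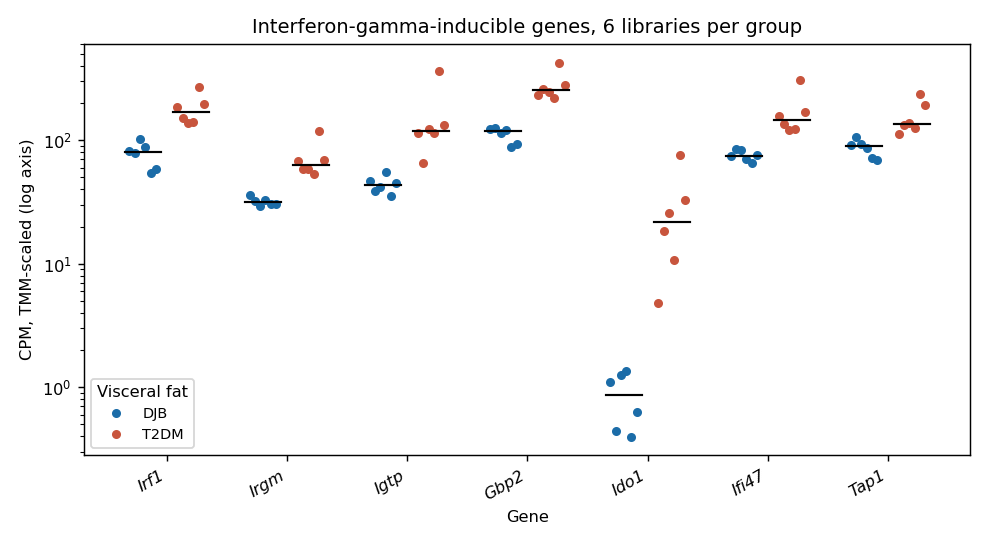
CPM (log axis, scaled by TMM) of 7 interferon-gamma-inducible genes in each of the 6 DJB (left of each pair) and 6 T2DM libraries, with the median as a bar. For all 7 genes every DJB library lies below every T2DM library.

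The 2 uncalled separating members were a GTPase and a peptide transporter. Ifi47 had 65.7, 74.9 and 85.3 CPM in DJB libraries and 122, 146 and 310 CPM in T2DM libraries (log2 fold change -1.16, adjusted p = 0.0556). Tap1, which carries peptides to class I molecules, had 68.6, 89.6 and 105 CPM in DJB libraries and 112, 135 and 239 CPM in T2DM libraries (log2 fold change -0.86, adjusted p = 0.140). Other members overlapped between the groups. The chemokines Cxcl9 and Cxcl10, which draw T cells, had log2 fold changes of -0.62 and -2.21 (adjusted p = 0.437 and 0.0863), and Gbp5 had -1.41 (adjusted p = 0.0793).

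In all, 47 called lower genes separated every library, and 5 of them are in the list. From those outside the list 4 are given here, and the 3 GTPase-related ones among them were named after their values were seen. RGD1309362 and MGC108823, which the table annotates with GTPase activity and a response to interferon, and LOC100910979, annotated with GTP binding, had log2 fold changes of -1.54, -1.54 and -1.59 (adjusted p = 0.0329, 0.0415 and 0.0357) and separated every library. Reads shared among related GTPase genes could be counted under any of them, so these values are uncertain. Irf4, a transcription factor of lymphocytes, macrophages and adipocytes, had 3.04, 6.96 and 16.9 CPM in DJB libraries and 18.03, 32.4 and 131 CPM in T2DM libraries (log2 fold change -2.67, adjusted p = 0.0331).

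Genes of the type I interferon response, a neighbouring pathway that other cytokines set off, were not called. Of 26 tested genes 0 were called by edgeR, 3 had an unadjusted p under 0.05, 1 was called by DESeq2 and 0 separated every library, with a median log2 fold change of -0.04. The transcript of interferon gamma itself was near the limit: Ifng had 8 counts in DJB library 6 and 0 in the other DJB libraries, and 5 counts in T2DM library 1, 11 in T2DM library 5 and 0 in the rest. Markers of the cells that make it did not separate the groups. The 25 T and natural killer cell genes summed to 112 to 233 CPM in DJB and 89.5 to 249 CPM in T2DM libraries, with 1 gene at 0 in all 12. Among these genes Gata3 was called lower (log2 fold change -3.47, adjusted p = 0.0499 by edgeR). Its level was 72.6 CPM in T2DM library 3, 49.4 CPM in library 4 and at most 2.47 CPM in any DJB library. Without T2DM libraries 2, 3 and 4, which were high in epithelial genes, its log2 fold change was -0.26. The T and natural killer cell sums may therefore not reflect these cells alone. For another cell type, the macrophages, the sums of 20 genes also overlapped, with Lpl, which is in the adipocyte list too, among them. The part of these cells in the interferon genes was not tested beyond these sums.

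The direction of the interferon list did not depend on the libraries that stood apart. Its median log2 fold change was -0.93 without T2DM libraries 2 and 5, -1.25 when T2DM libraries 2, 3 and 4 were left out, -1.21 without DJB libraries 1 and 2 and -0.95 without DJB libraries 5 and 6. The separation did depend on the scaling of 1 library. Under TPM scaling the median was -0.97, but T2DM library 2 alone came down among the DJB libraries for Irf1, Irgm, Igtp, Gbp2, Ifi47 and Tap1, while Ido1 still separated every library. In the subcutaneous libraries of the same fit, the log2 fold changes of DJB over T2DM were -0.84 for Irf1, -1.28 for Irgm, -1.88 for Igtp, -1.46 for Gbp2 and -6.37 for Ido1. No p-value or overlap of libraries is given for these values. The labels do not say whether both depots come from the same rats. The difference between the depots was not called for any of the 5 (adjusted p from 0.675 to 0.966).

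A few genes of vascular endothelium rose in the bypass group, while the lists as a whole overlapped. Of 20 tested markers of blood endothelium 17 had a positive fold change, with a median log2 fold change of 0.94, and 2 genes were called higher, Plvap and Nos3, both of them separating every library. Of 13 tested markers of lymphatic endothelium 11 were positive, with a median of 0.71, and 1 rose and separated every library, Flt4. The mean log2(CPM + 1) was 6.81 to 7.43 in DJB and 5.15 to 6.94 in T2DM libraries for the blood list, and 3.70 to 4.98 in DJB and 3.33 to 4.34 in T2DM libraries for the lymphatic list. DJB libraries 5 and 6 were the highest of the lymphatic list, at 4.98 and 4.90, and its median log2 fold change was 0.21 without them and 0.39 without T2DM libraries 2 and 5.

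Plvap, which forms the diaphragms of fenestrated capillaries, had 182, 259 and 347 CPM in DJB libraries and 45.1, 87.5 and 174 CPM in T2DM libraries. The highest T2DM library, library 1, lay just under the lowest DJB library, library 4. The log2 fold change was 1.496 (SE 0.39, adjusted p = 0.0379) and stayed between 1.35 and 1.74 with any 1 library left out.

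Nos3, the endothelial nitric oxide synthase, had 97.5, 118 and 207 CPM in DJB libraries and 14.5, 52.9 and 78.3 CPM in T2DM libraries (log2 fold change 1.47, SE 0.40, adjusted p = 0.0427). Flt4, the receptor for the lymphatic growth factor VEGF-C, had 34.1, 41.2 and 65.9 CPM in DJB libraries and 3.37, 15.7 and 28.1 CPM in T2DM libraries (log2 fold change 1.54, SE 0.42, adjusted p = 0.0416). For both genes T2DM library 2 was the lowest and no T2DM library reached a DJB library.

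The receptors of VEGF-A on blood endothelium were not called. Flt1 separated every library, with 270, 336 and 408 CPM in DJB and 14.2, 147 and 261 CPM in T2DM libraries, but T2DM library 2 lay far under the rest and the log2 fold change of 1.16 missed the threshold (SE 0.57, adjusted p = 0.239). Kdr was at a log2 fold change of 1.09 (adjusted p = 0.249), the junction gene Cdh5 1.03 (adjusted p = 0.252) and the receptor Tie1 1.05 (adjusted p = 0.0948), and for each of them some T2DM libraries lay among the DJB libraries. The 21 blood endothelial markers in the table summed to 3390 to 5640 CPM in DJB and 1080 to 4250 CPM in T2DM libraries, so the sums overlapped, with none of the markers at 0 in all libraries. Under TPM scaling DJB library 2 fell among the T2DM libraries for Plvap, Nos3 and Flt4, and T2DM libraries 1 and 4, and for the last 2 genes also 6, reached it. The median of the blood list kept its sign with T2DM libraries 2 and 5 left out (0.66) and with T2DM libraries 2, 3 and 4 left out (0.60).

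**Figure D4:**
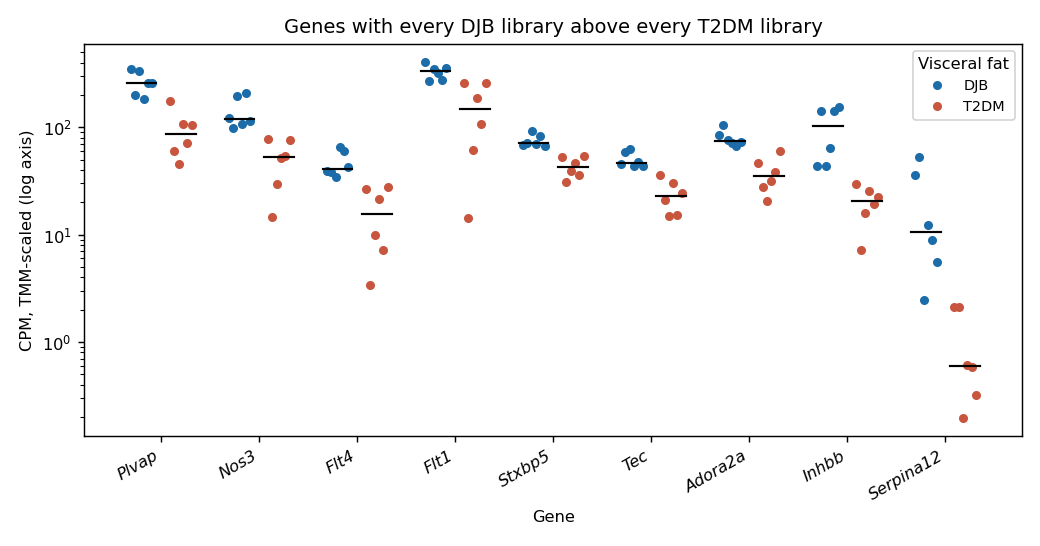
CPM (log axis, scaled by TMM) in each of the 6 DJB (left of each pair) and 6 T2DM libraries for 4 endothelial genes and 5 other genes, with the median as a bar. For all 9 genes every DJB library lies above every T2DM library.

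Other higher genes that separated every library included 2 secreted factors of fat. Inhbb, the beta B chain of activin and inhibin, had 43.2, 103 and 154 CPM in DJB libraries and 7.14, 20.7 and 29.8 CPM in T2DM libraries (log2 fold change 2.30, SE 0.52, adjusted p = 0.0329). Serpina12, the adipokine vaspin, had 2.48, 10.7 and 53.2 CPM in DJB libraries and 0.196, 0.602 and 2.11 CPM in T2DM libraries (log2 fold change 4.32, SE 1.18, adjusted p = 0.0418). DJB libraries 1 and 2 were its highest, and the lowest DJB library was close to the highest T2DM library.

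Further members of this group were regulators of secretion and signalling. Stxbp5, which binds SNARE proteins and restrains exocytosis, had the smallest SE of the higher genes named, with 67.0, 70.7 and 93.0 CPM in DJB libraries and 30.8, 42.7 and 54.5 CPM in T2DM libraries (log2 fold change 0.81, SE 0.17, adjusted p = 0.0298). The adenosine receptor gene Adora2a had 67.2, 74.5 and 106 CPM in DJB and 20.5, 35.0 and 60.3 CPM in T2DM libraries (log2 fold change 1.09, adjusted p = 0.0372), and the tyrosine kinase Tec had 43.3, 46.7 and 63.0 CPM in DJB and 15.0, 22.8 and 35.9 CPM in T2DM libraries (log2 fold change 1.09, adjusted p = 0.0329). The lipid transporter Abca7, stannin (Snn), the membrane-anchored semaphorin Sema7a and the Wnt regulator Ccdc88c rose by log2 fold changes of 1.06, 1.25, 1.40 and 1.54 (adjusted p = 0.0351, 0.0356, 0.0459 and 0.0447) and also separated every library.

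Of the lower genes, Fndc5 had the smallest p of all 14019. It encodes the precursor of irisin, a hormone released by muscle and fat. It had 0.451, 0.672 and 1.12 CPM in DJB libraries and 2.18, 10.9 and 21.8 CPM in T2DM libraries (log2 fold change -4.01, SE 0.56, adjusted p = 0.00602). T2DM libraries 1 and 6 were the lowest of their group at 2.20 and 2.18 CPM and were still above every DJB library. The fold change lay between -4.26 and -3.71 with any 1 library left out, with an adjusted p of at most 0.0403, and the gene separated every library under all 5 other scalings tried.

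Several separating lower genes are known from epithelia. The serpin Serpinb5 had 0, 0.147 and 0.267 CPM in DJB libraries and 0.477, 17.0 and 63.3 CPM in T2DM libraries (log2 fold change -7.31, adjusted p = 0.0282). T2DM libraries 2, 3 and 4 held 31.7, 63.3 and 46.9 CPM, whereas libraries 5 and 6 held 0.539 and 0.477 CPM, so the separation was complete but the size of the change came from 3 libraries, with library 1 between at 2.24 CPM. The forkhead factor Foxq1, the surface protein Lypd3, the motor Myo5b and the keratin Krt14 had log2 fold changes of -6.67, -5.42, -4.34 and -4.64 (adjusted p = 0.0132, 0.0284, 0.0284 and 0.0329). Their lowest T2DM library was at 0.784, 0.686, 3.81 and 1.72 CPM, against 0.685, 0.507, 2.00 and 1.67 CPM in their highest DJB library. Foxq1 had 21.9, 95.8 and 82.9 CPM in T2DM libraries 2, 3 and 4, and its log2 fold change was -2.79 without them. For Lypd3, Myo5b and Krt14 the libraries behind the size of the change are not given here.

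The rest of the separating lower genes named here belong to no epithelial list. The co-chaperone Bag2 had 3.36, 3.62 and 4.61 CPM in DJB and 5.72, 13.6 and 31.3 CPM in T2DM libraries (log2 fold change -1.996, adjusted p = 0.0291). Bambi, a decoy receptor that dampens TGF-beta signals, had 2.73, 3.56 and 6.30 CPM in DJB and 7.13, 15.0 and 38.2 CPM in T2DM libraries (log2 fold change -2.17, adjusted p = 0.0298). Bag2 and Bambi were highest in T2DM libraries 2, 3 and 4, and their log2 fold changes were -0.73 and -1.03 without these 3 libraries. Cds1, which makes the phospholipid precursor CDP-diacylglycerol, the calcium-binding Cib2 and the WW-domain binder Wbp1 fell with log2 fold changes of -3.36, -4.77 and -1.97 (adjusted p = 0.0170, 0.0147 and 0.0284). Cds1 was highest in T2DM libraries 3 and 4, at 52.0 and 43.9 CPM, and had -2.04 without T2DM libraries 2, 3 and 4. Cib2 had 123 CPM in T2DM library 5 and 24.0 CPM in library 2, the next highest, and -2.57 without these 2 libraries. Cycs, the electron carrier cytochrome c, had 98.4, 114 and 144 CPM in DJB and 148, 221 and 1088 CPM in T2DM libraries (log2 fold change -1.67, adjusted p = 0.0329), and it was the only respiratory-chain gene of the lists that separated every library.

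The choice of scaling decided how many of these genes separated. Of the 66, 64 still did so under RLE scaling and 64 without mitochondrially encoded genes, 50 with the length trend removed, 16 under TPM scaling and 28 under TPM scaling without mitochondrially encoded genes. Under all of them 13 called genes separated every library, 3 higher (Inhbb, Adora2a and Serpina12) and 10 lower, which include Fndc5, Cib2, Ido1, Serpinb5, Myo5b and Wbp1.

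The gene lists hold 1243 tested genes, of which 220 were called (17.7%), 21 higher and 199 lower, and 15 of the 220 separated every library. The lower genes of the lists were mostly mitochondrial, ribosomal and epithelial, and their levels followed single libraries.

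Genes of the respiratory chain were lower in the bypass group in every list of them. Of 36 tested subunits of complex I 33 fell, of 25 genes of complexes II to IV, cytochrome c included, 25 fell, and of 15 subunits of ATP synthase 10 fell, with median log2 fold changes of -1.94, -2.07 and -1.45. None of the complex I subunits separated every library. T2DM library 2 was above every DJB library for 35 of the 36, library 5 for 36, library 6 for 29, library 3 for 16, library 4 for 15 and library 1 for 0. The mean log2(CPM + 1) of complex I was 4.16 to 4.62 in DJB libraries, and in T2DM libraries 1 to 6 it was 4.18, 7.78, 4.68, 4.67, 6.82 and 5.01. Without T2DM libraries 2 and 5 the 3 medians were -0.34, -0.39 and -0.29, and none of these genes was called. The median transcript length in the table was 734, 626 and 827 bases in the 3 lists and 2295 bases over all tested genes. With the length trend removed the medians were -1.13, -1.32 and -1.29, and 3, 1 and 0 genes were called.

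Cytosolic ribosomal proteins followed the same 2 libraries more sharply. Of 80 tested gene entries 20 fell, with a median log2 fold change of -2.09 that became -0.11 without T2DM libraries 2 and 5. T2DM libraries 1 to 6 were above every DJB library for 1, 80, 4, 7, 72 and 45 of the 80 entries. Among the called entries, 1 separated every library. The abundant Rps27 had 43.4, 58.5 and 73.5 CPM in DJB libraries and 48.2, 81.3 and 4526 CPM in T2DM libraries, where the highest value is library 2 and the next 113 CPM in library 5 (log2 fold change -3.82, adjusted p = 0.0357). Rpl41 had the same shape, with 10220 CPM in T2DM library 2. Mt-nd3, a mitochondrially encoded subunit of complex I, had 155, 283 and 472 CPM in DJB and 130, 349 and 13680 CPM in T2DM libraries (log2 fold change -3.22, adjusted p = 0.0440), was above every DJB library in T2DM libraries 2 and 5 alone, and had a log2 fold change of 0.13 without them.

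Fatty acid oxidation rested on more libraries. Of 22 tested genes 17 fell, with a median log2 fold change of -1.97, which was -0.80 with T2DM libraries 2 and 5 left out and -2.39 with T2DM libraries 2, 3 and 4 left out. T2DM libraries 3, 4 and 5 were above every DJB library for 20, 20 and 21 of the 22 genes, libraries 2 and 6 for 15 and 17, and library 1 for 1. Eci1, an enoyl-CoA isomerase of unsaturated fatty acids, had 16.2, 29.4 and 50.8 CPM in DJB libraries and 40.1, 128 and 1074 CPM in T2DM libraries (log2 fold change -3.38, adjusted p = 0.0300). Its T2DM libraries 2 to 6 lay above every DJB library and T2DM library 1 lay among them. The 1 member that separated every library, Acaa2, the thiolase that ends each round of oxidation, was not called (log2 fold change -1.98, adjusted p = 0.0646), and its highest DJB library at 253.5 CPM was close to its lowest T2DM library at 265.5 CPM. The mean log2(CPM + 1) of the list was 5.57 to 6.41 in DJB libraries, 6.07 in T2DM library 1, 6.78 to 7.23 in T2DM libraries 2, 3, 4 and 6 and 9.44 in T2DM library 5.

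Genes of heat-producing fat lay in between. Of 10 tested genes 5 fell, with a median log2 fold change of -2.04, and the mean log2(CPM + 1) of the list did not overlap, at 2.72 to 3.56 in DJB and 3.65 to 7.80 in T2DM libraries, although no single member separated every library. Cidea, a lipid droplet protein, had 6.04, 22.9 and 25.7 CPM in DJB libraries and 24.3, 71.1 and 997 CPM in T2DM libraries (log2 fold change -3.66, adjusted p = 0.0310). Cpt1b, the muscle-type gate of fatty acid entry into mitochondria, fell too, with a log2 fold change of -3.46 (adjusted p = 0.0329). Ucp1, the uncoupling protein of brown fat, had 0, 0.184 and 7.88 CPM in DJB libraries and 1.19, 50.2 and 2935 CPM in T2DM libraries and was not called (log2 fold change -7.96, adjusted p = 0.0556). T2DM library 5 held the highest level of all 3 genes.

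Epithelial genes were highest in T2DM libraries 2, 3 and 4. Of 17 tested markers of urothelium, the lining of the bladder, 17 fell, with a median log2 fold change of -7.46 that was -1.92 without these 3 libraries. Of 14 markers of stratified epithelium 12 fell, with medians of -5.20 and -1.24. A tested gene had to reach an FPKM of 1 in 5 libraries, and both lists were near the floor in DJB libraries. The filter thus favoured members that were high in other libraries, and the counts of falling genes are partly set by it. T2DM libraries 1 to 6 were above every DJB library for 16, 17, 17, 17, 9 and 2 of the urothelial markers and for 13, 14, 13, 13, 6 and 5 of the stratified ones. The urothelial list mean of log2(CPM + 1) was at most 0.817 in DJB libraries, against 2.20 in T2DM library 1 and 5.52 to 6.38 in T2DM libraries 2, 3 and 4. Upk1a, a plaque protein of the bladder surface, had 0, 0.743 and 2.86 CPM in DJB libraries, whereas T2DM libraries 1 to 6 had 11.8, 403, 369, 264, 3.09 and 1.47 CPM (log2 fold change -7.46, adjusted p = 0.0284). The keratin Krt7 had 0.455, 2.39 and 4.17 CPM in DJB libraries and 18.7, 554, 622, 433, 4.63 and 1.23 CPM in T2DM libraries 1 to 6 (log2 fold change -6.87, adjusted p = 0.0170). The 19 urothelial markers in the table summed to 6.51 to 19.8 CPM in DJB and 11.7 to 2920 CPM in T2DM libraries. Of 9 tested markers of mesothelium, the lining of the peritoneum, 5 fell and 3 had a positive fold change. Their median was -5.11, and -0.23 without the same 3 libraries. The mesothelium list shares Upk1b and Upk3b with the urothelial list and Cdh1 with the stratified list, so it is not a separate readout. Whether these libraries held other tissue was not tested.

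Chaperones of the endoplasmic reticulum, which fold secreted proteins, were higher in DJB libraries 5 and 6. All 25 tested genes had a positive fold change, with a median log2 fold change of 0.71, and 3 of them rose. The mean log2(CPM + 1) of the list was 7.57 and 7.68 in DJB libraries 5 and 6, 6.18 to 6.45 in the other DJB libraries and 5.79 to 6.39 in T2DM libraries. Hspa5, the master chaperone BiP, had 348, 479, 336, 291, 2037 and 2179 CPM in DJB libraries 1 to 6 and 194, 301 and 409 CPM in T2DM libraries (log2 fold change 1.66, adjusted p = 0.0409). Hsp90b1 had 376, 524 and 2022 CPM in DJB libraries and 190, 359 and 466 CPM in T2DM libraries (log2 fold change 1.44, adjusted p = 0.0438). Without DJB libraries 5 and 6 the log2 fold changes were 0.28 for Hspa5 and 0.40 for Hsp90b1, and the median of the list was 0.20.

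The promoters of both chaperones are shown because both hold a word that is rare elsewhere, the endoplasmic reticulum stress element (ERSE), searched as CCAAT, any 9 bases and CCACG. They are again the 250 bases before the RefSeq start on GRCr8, with matches on either strand in capitals, at chr3:38452766-38453015 for Hspa5 and at chr7:23012294-23012543 on the minus strand for Hsp90b1.
Hspa5: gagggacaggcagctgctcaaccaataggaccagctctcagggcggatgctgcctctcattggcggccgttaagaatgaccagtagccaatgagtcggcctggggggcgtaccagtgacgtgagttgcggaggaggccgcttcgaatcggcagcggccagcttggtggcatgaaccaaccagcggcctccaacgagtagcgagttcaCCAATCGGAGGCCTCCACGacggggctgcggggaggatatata
Hsp90b1: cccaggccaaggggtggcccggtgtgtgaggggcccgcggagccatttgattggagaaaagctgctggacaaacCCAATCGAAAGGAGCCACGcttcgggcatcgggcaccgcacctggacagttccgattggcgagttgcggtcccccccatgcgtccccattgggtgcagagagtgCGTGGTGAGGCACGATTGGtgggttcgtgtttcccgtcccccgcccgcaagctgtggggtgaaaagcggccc
Hspa5 has 1 match, from -43 to -25, and Hsp90b1 has 2, from -176 to -158 and, on the other strand, from -72 to -54. Of the 19 tested chaperone genes with a window 8 hold the word, against 0.0657% of all 33469 windows. The other 11 lack it, and the word says nothing of the libraries in which the list was high.

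DJB libraries 5 and 6 also carried the highest levels of another abundant gene that rose. Cfb, complement factor B, had 173, 227, 198, 246, 836 and 1448 CPM in DJB libraries 1 to 6 and 96.6, 119 and 188 CPM in T2DM libraries (log2 fold change 2.01, adjusted p = 0.0434, and 0.71 without DJB libraries 5 and 6). Tpm3, a tropomyosin of the cytoskeleton, had 212, 325 and 505 CPM in DJB and 142, 188 and 262 CPM in T2DM libraries, with 5 of 6 DJB libraries above every T2DM library (log2 fold change 0.90, adjusted p = 0.0333).

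Plasma proteins made by the liver were high in DJB libraries 1 and 2. Of 19 tested genes 18 had a positive fold change and 6 rose, and the median log2 fold change was 4.96, or 0.13 without these 2 libraries. DJB libraries 1 and 2 were above every T2DM library for 16 and 18 genes. The albumin gene Alb had 369 and 1217 CPM there, but 776 and 423 CPM in T2DM libraries 2 and 6 (log2 fold change 0.07, adjusted p = 0.977 by edgeR). Cyp2e1 was the 1 negative gene (-2.18, adjusted p = 0.190 by edgeR) and was highest in T2DM libraries 2 and 5. Haptoglobin (Hp) had 59.7 and 821 CPM in DJB libraries 1 and 2, 1.83 to 10.8 CPM in the other DJB libraries and 1.80 to 11.7 CPM in T2DM libraries (log2 fold change 5.04, adjusted p = 0.0381). It is 1 of the 2 higher genes that rested on a few libraries.

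**Figure D5:**
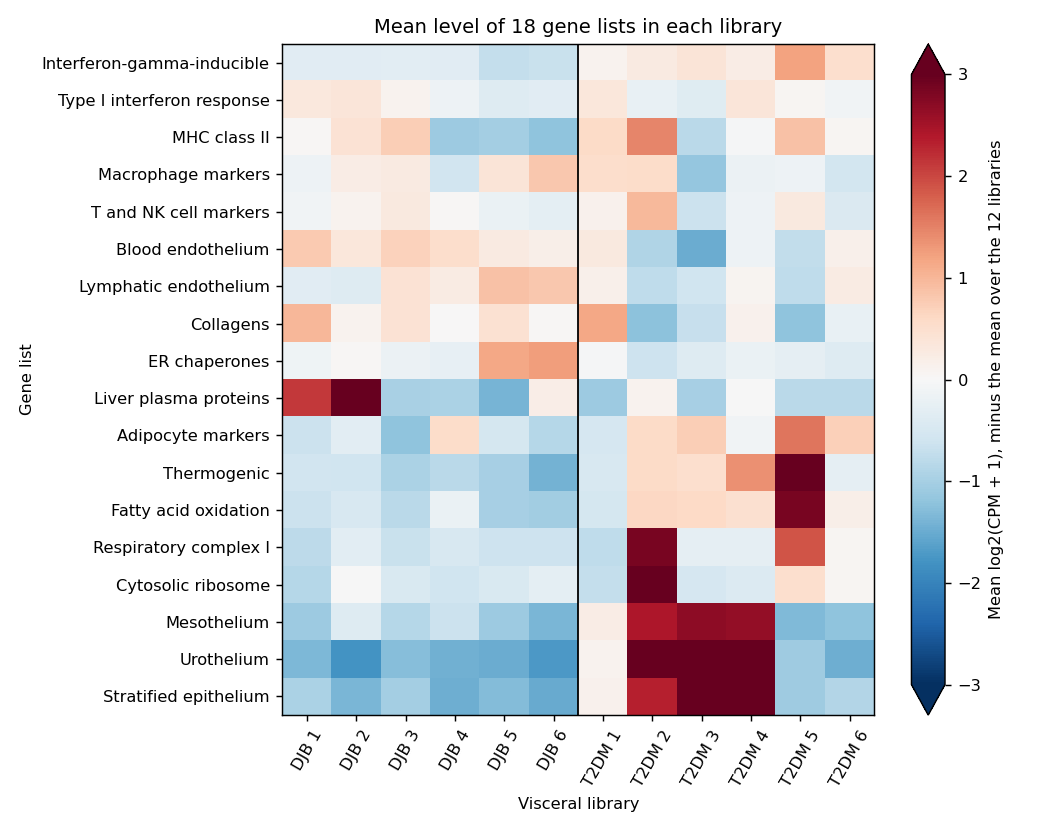
Mean log2(CPM + 1) of 18 gene lists in each visceral library (DJB left of the line, T2DM right), minus the mean of that list over the 12 libraries. The interferon-gamma row is lower in all 6 DJB libraries than in all 6 T2DM libraries, whereas the urothelial row stands out in T2DM libraries 2, 3 and 4, the ribosomal row in T2DM library 2, the chaperone row in DJB libraries 5 and 6 and the liver row in DJB libraries 1 and 2.

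Markers of adipocytes, the adiponectin gene among them, and the growth hormone receptor gene were not called. Of 28 tested genes of the adipokine list 3 were called (10.7%, against 4.69% of all tested genes), 2 higher and 1 lower. Of 17 adipocyte markers 0 were called by edgeR, 4 had an unadjusted p under 0.05, 4 were called by DESeq2, 16 had a negative fold change and the median was -1.39. Adipoq, which encodes adiponectin, had 738, 1075 and 2794 CPM in DJB libraries and 1429, 2522 and 7193 CPM in T2DM libraries, with 3 of 6 T2DM libraries above every DJB library (log2 fold change -1.18, SE 0.70, adjusted p = 0.333). Ghr, the growth hormone receptor, had 167, 233 and 368 CPM in DJB and 216, 308 and 479 CPM in T2DM libraries (log2 fold change -0.37, SE 0.46, adjusted p = 0.681). Of 66 lists with a tested gene 26 had no gene called by edgeR, among them insulin signalling (26 genes, median 0.02), macrophage markers (20 genes, 0.12), chemokines (23 genes, -0.03), collagens (21 genes, 0.53), lipogenesis (19 genes, -0.99) and immediate early genes (26 genes, 0.26). In these 6 lists 5, 3, 3, 2, 7 and 1 genes had an unadjusted p under 0.05, and DESeq2 called 3, 0, 2, 1, 4 and 0. A gene that missed the threshold is not shown to be equal between the groups.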

How the data were processed

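The authors deposited 1 table for the 22 libraries that holds, per the file headers, raw read counts of each gene beside FPKM, a value corrected for gene length and depth. The submitters' processing notes name cutadapt 1.9, FastQC and the build mRatBN7.2. As to aligner, counting tool, strand setting and annotation, each is not given in the sources used here. Genes that reached an FPKM of 1 in 5 or more libraries entered edgeR 4.0.16 (quasi-likelihood, TMM, 1 mean per group over 22 libraries, common biological coefficient of variation 0.551). DESeq2 1.42.0 and limma 3.58.1 were alternatives. The fit was also run on simulated counts. These were drawn gene by gene without effects shared across a library, so they cannot show how the fit handles such effects. SE is the absolute log2 fold change over the root of F. Counting error was not estimated apart from the spread between libraries.

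The comparison, the 68 gene lists and the tests were chosen with earlier results of these data known. The rule for named genes takes the 12 called separating genes with the smallest p in each direction (with a symbol and an FPKM of at least 2), the 6 most abundant called in each direction, up to 4 members of each list, the most abundant members of library-bound lists, and Adipoq, Ghr and Fndc5; names that repeat a pattern are left out, and some genes are not reported here. Acaa2, Bambi, Flt1, Kdr, Cdh5, Ifi47, Tap1, Gbp5, Cxcl9, RGD1309362, MGC108823 and LOC100910979 were added after their values were seen. Promoters are RefSeq sequence on GRCr8, matched by symbol.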

Additional observations from a re-analysis of the deposited data

Results flagged for a closer look

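Among 120 groups of 6 libraries examined on log2(CPM + 1), 7 held a library whose gap to its nearest neighbour, as a share of the whole range, was over Dixon's critical value, and chance flags about 1 in 20 groups. T2DM library 5 was far above the other T2DM libraries for the interferon-inducible Ifi47 (0.647), Irgm (0.6633) and LOC100910979 (0.699), whose separation of the groups does not rest on that library. DJB library 5 was far below the other DJB libraries for MGC108823 (0.6783). T2DM library 2 was far above the other T2DM libraries for Rpl41 (0.7627) and Rps27 (0.8135), and far below them for Sema7a (0.755).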

How the results depend on the processing

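With all libraries and TMM scaling, 658 genes were called, 66 of them separated every library, and 220 genes of the lists were called, and these 3 counts give the order of the values below. They were 1459, 99 and 345 with DESeq2, 51, 27 and 5 with limma voom and quality weights, 237, 39 and 81 with no filter on low values, 173, 30 and 62 with the length trend removed, 115, 9 and 43 under TPM scaling, and 1, 1 and 1 in a fit of the 12 visceral libraries. TPM scaling without mitochondrially encoded genes, an alternative added after the data were seen, gave 34, 8 and 14. Leaving out 1 library at a time gave 1 to 1744, 1 to 422 and 1 to 407. The counts were 0, 0 and 0 without DJB libraries 1 and 2, without DJB libraries 5 and 6 and without T2DM libraries 2, 3 and 4, and 73, 25 and 27 without T2DM libraries 2 and 5. RLE scaling, the robust dispersion and leaving out mitochondrially encoded genes kept all 3 counts within 1.5 times. With the replicate number as a block the counts were 0, 0 and 0, and 2445 genes had an unadjusted p under 0.05. Same-numbered visceral DJB and T2DM libraries had correlations of their deviations between -0.0641 and 0.252. Of the 6 DJB libraries, 1 correlated best with its own number. Whether visceral and subcutaneous libraries of the same number come from the same rat is not in the labels and was not tested. The log2 fold change of Mt-nd3 changed sign and was 0.13 without T2DM libraries 2 and 5. That of Alb, which was not called, was 0.07 with all libraries. It was -1.95 without DJB libraries 1 and 2 and -0.38 with limma voom and quality weights. The difference in the mitochondrial share, DJB minus T2DM, was 2.12 percentage points and lay between -1.75 and 5.73 with 1 library left out. At this depth Ifng, with 0 to 11 counts in a library, could not be compared. The causes of these changes were not tested.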
